A study of Rattus norvegicus with 5 samples.

Results

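The TGF-beta ligand genes Tgfb1, Tgfb2 and Tgfb3, the receptor genes Tgfbr1, Tgfbr2 and Tgfbr3 and the Id genes Id1, Id2 and Id3 were examined in Müller cells, glia that span the whole retina, from diabetic and normal rats. All probe sets annotated with 1 of these 9 symbols were taken, which gave 13 probe sets of 8 genes among 8740 non-control probe sets. Tgfbr2 was not analysed here, because no probe set carried its symbol. The diabetic group was 1 pool of Müller cells from 12 male Sprague-Dawley rats, given streptozotocin, a toxin of pancreatic beta cells, and kept diabetic for 6 months with a little insulin against wasting. That pool was hybridised to 2 arrays, the second labelled a technical replicate. The normal group was 3 pools from healthy male rats of the same strain, each of 12 rats and on 1 array. The labels give no age for either group, and pooling hides differences between single animals. The comparison asks how months of diabetes alter what these glia transcribe.

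TGF-beta ligands are secreted in latent form and, once freed, bind a complex of the type II receptor (Tgfbr2) and the type I receptor (Tgfbr1), with the co-receptor betaglycan (Tgfbr3) presenting the ligand. The activated type I receptor phosphorylates Smad proteins, which move to the nucleus with Smad4 and change transcription. The Id genes are well-known targets of this superfamily, above all of its bone morphogenetic protein branch. Id proteins contain a helix-loop-helix domain but no DNA-binding region, so they hold basic helix-loop-helix (bHLH) transcription factors in complexes that cannot bind DNA. In the retina TGF-beta is made by glia, among other cells, and is known for its roles in vessel walls, microglia and the extracellular matrix.

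After scaling, all 5 probe sets of the 3 Id genes lay below normal in the diabetic pool, as did 51.2% of all tested probe sets. For 2 of the 5 both diabetic arrays lay below every normal array, as they did for 7.01% of all tested probe sets. With scaling to a common median in place of quantile normalisation all 5 overlapped. Unscaled, only L23148_g_at of the 5 lay below normal (-0.38). The 3 ligand genes did not share a direction. The proximal promoters of the Id genes are shown because those genes lay on 1 side together after scaling. All 9 genes had an entry in the RefSeq promoter table of rat assembly GRCr8, which holds 300 bases per gene, 250 before and 50 after the annotated start, on the gene's strand. Capitals mark matches to CAGAC (a Smad box), GGCGCC (a GC-rich element of bone morphogenetic protein targets) and CCAAT, each searched on both strands, and to TATAA on the gene's strand. No 2 of these matches overlap in the printed windows.
Id1 (chr3:161671314-161671613, plus strand): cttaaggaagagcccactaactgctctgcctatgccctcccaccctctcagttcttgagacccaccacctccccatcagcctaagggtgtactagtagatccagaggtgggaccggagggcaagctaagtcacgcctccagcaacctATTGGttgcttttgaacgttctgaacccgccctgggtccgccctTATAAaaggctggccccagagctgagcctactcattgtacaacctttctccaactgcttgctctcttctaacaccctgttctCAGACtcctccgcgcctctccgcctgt
Id2 (chr6:47470946-47471245, minus strand): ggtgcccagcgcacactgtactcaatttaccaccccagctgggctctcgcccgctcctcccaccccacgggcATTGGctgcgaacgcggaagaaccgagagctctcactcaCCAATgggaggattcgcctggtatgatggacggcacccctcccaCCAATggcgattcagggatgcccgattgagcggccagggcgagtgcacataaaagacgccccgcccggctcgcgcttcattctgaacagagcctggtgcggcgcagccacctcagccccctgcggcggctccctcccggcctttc
Id3 (chr5:153656041-153656340, plus strand): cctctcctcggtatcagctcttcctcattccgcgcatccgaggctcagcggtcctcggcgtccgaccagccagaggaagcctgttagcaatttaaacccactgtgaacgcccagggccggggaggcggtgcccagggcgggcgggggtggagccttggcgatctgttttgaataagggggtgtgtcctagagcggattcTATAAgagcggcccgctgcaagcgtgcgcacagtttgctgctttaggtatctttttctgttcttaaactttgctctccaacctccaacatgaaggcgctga
The Id1 window held TATAA from base -59, 1 CCAAT match from base -103 and 1 CAGAC match from base 24 after the start. Id2 had 3 CCAAT matches, from bases -178, -139 and -95, and Id3 had TATAA from base -51. No GGCGCC was found in these 3 windows. Over 33469 promoter windows of the same length CAGAC was present in 50.1%, CCAAT in 37.5%, TATAA in 18.4% and GGCGCC in 11%. The matches are letters in a window and are not evidence of binding.

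The values below are quantile-normalised signals, with a floor of 20 below which levels have no order, and differences are on the log2 scale of these floored signals, diabetic minus normal. A probe set was tested if it was among the brightest 70% of the array, which held for 9 of the 13 probe sets, those of Tgfb1, Tgfb2, Tgfb3, Id1, Id2 and Id3. The 4 probe sets of Tgfbr1 and Tgfbr3 were too dim to be tested. None of the 9 tested probe sets passed limma's test at an adjusted p of 0.05, and 0 had an unadjusted p under 0.05. Over all 6118 tested probe sets 0% passed after adjustment and 1.6% had an unadjusted p under 0.05. No other tool was run. The adjusted p of each of the 9 was 0.9999. The SEs, 95% intervals and p-values quoted rest on limma's moderated variance, with the lone diabetic pool assumed to vary like the normal pools. That variance combines the spread of the 3 normal pools with the variance expected at that signal level from all tested probe sets. The spread of the pools had 2 degrees of freedom and the expected variance 3.54. The widths are therefore not the measured variation between pools alone. An exact permutation of 1 pool against 3 cannot give a p under 0.25. Precision is limited by how few arrays there were.

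The arrays differed in more than their group. The actin signal of the 3' probe set was divided by that of the 5' probe set, a ratio that grows as RNA degrades. It was 1.76 and 2.55 on the diabetic arrays, against 2.61, 1.52 and 1.46 on normal arrays 1, 2 and 3. The same ratio for GAPDH ordered the arrays differently. It was 1.11 and 1.35 on the diabetic arrays, against 1.16, 1.24 and 1.03 on normal arrays 1, 2 and 3. Diabetic array 2 and normal array 3 shared a processing day and chip lot. Normal arrays 1 and 2 differed from that pair and from each other in day or chip lot. For diabetic array 1 the day, the chip lot or both were not recorded. Of 12 Müller cell markers 9 had a probe set, and 0 of these were at the floor on any array. Their mean log2 signal was 10.84 to 11.11 on the diabetic arrays, against 10.91 to 11.26 on the normal arrays. Photoreceptor markers were also well above the floor, and 6 of 6 tested lay above normal (mean log2 signal 10.46 to 10.60 on the diabetic arrays, against 8.96 to 10.11 on the normal arrays). Of 8 tested microglial and leukocyte markers 7 lay above normal, with a mean log2 signal over all 10 on the array of 6.40 to 6.50 on the diabetic arrays, against 5.95 to 6.00 on the normal arrays. The 10 endothelial and pericyte markers averaged 6.12 to 6.23 on the diabetic arrays, against 6.01 to 6.41 on the normal arrays, with desmin at the floor on all 5. Those vascular cells also express TGF-beta receptors and Id genes. The part of these other cells in the values below was not tested, and in bulk RNA fewer cells of a type and less RNA per cell cannot be told apart.

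Id3, whose product restrains bHLH factors like those of the other Id genes, was measured by 2 probe sets. The first, rc_AI171268_at, had normalised signals of 1596 and 1812 on the diabetic arrays, against 2073, 2078 and 2325 on the normal arrays. Both diabetic arrays were thus below every normal array. The log2 difference was -0.34 (SE 0.23, 1 diabetic pool against 3 normal pools, 95% interval -0.92 to 0.23; limma's unadjusted p = 0.193), or 0.789 times normal. The second Id3 probe set, AF000942_at, had 905.5 and 460 on the diabetic arrays, against 723.5, 931.9 and 817.3 on the normal arrays. Its difference was nearly the same, at -0.35 (SE 0.26, limma's unadjusted p = 0.24), but it came from diabetic array 2 alone. Diabetic array 1 lay within the normal range, and the 2 arrays of that 1 pool differed by 0.98 on the log2 scale. Without diabetic array 1 the difference of AF000942_at was -0.83, and without diabetic array 2 it was 0.14.

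Id2, whose product like the other Id proteins binds E-type bHLH factors, was measured by 1 probe set, rc_AI137583_at. Its signals were 1165 and 1112 on the diabetic arrays, against 1489, 1308 and 1322 on the normal arrays. Both diabetic arrays again lay below every normal array, by log2 differences of -0.17 to -0.42 over the 6 pairs of arrays. The log2 difference between groups was -0.27 (SE 0.23, 95% interval -0.85 to 0.31; limma's unadjusted p = 0.299), or 0.831 times normal. Id2 and the Id3 probe set rc_AI171268_at were among the members that varied least between normal pools, with an SD of 0.10 and 0.095 on the log2 scale (n = 3 pools), against a median SD of 0.37 over all tested probe sets. Of the 9 tested probe sets these were the 2 whose diabetic arrays lay below all normal arrays, and 0 had both arrays above. Over all tested probe sets 7.01% lay below and 9.53% above without overlap. With scaling to a common median in place of quantile normalisation all 9 overlapped.

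Id1 was measured by 2 probe sets of the same GenBank entry, which disagreed in size. On L23148_g_at the signals were 361.7 and 501.5 on the diabetic arrays, against 501.02, 1231 and 753.7 on the normal arrays. Diabetic array 2 and normal array 1, the 2 arrays with a high actin ratio, were level, and normal array 2 was highest. The log2 difference was -0.86 (SE 0.51, 95% interval -2.13 to 0.40; limma's unadjusted p = 0.144), or 0.55 times normal, and only 1.93% of the tested probe sets had a lower one. It was -0.53 without normal array 2 and -1.18 without normal array 1. On L23148_at the signals were 206.9 and 215.8 on the diabetic arrays, against 243.4, 259.1 and 195.6 on the normal arrays, so that the groups overlapped. That difference was -0.13 (SE 0.33, 95% interval -0.94 to 0.68).

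**Figure D1:**
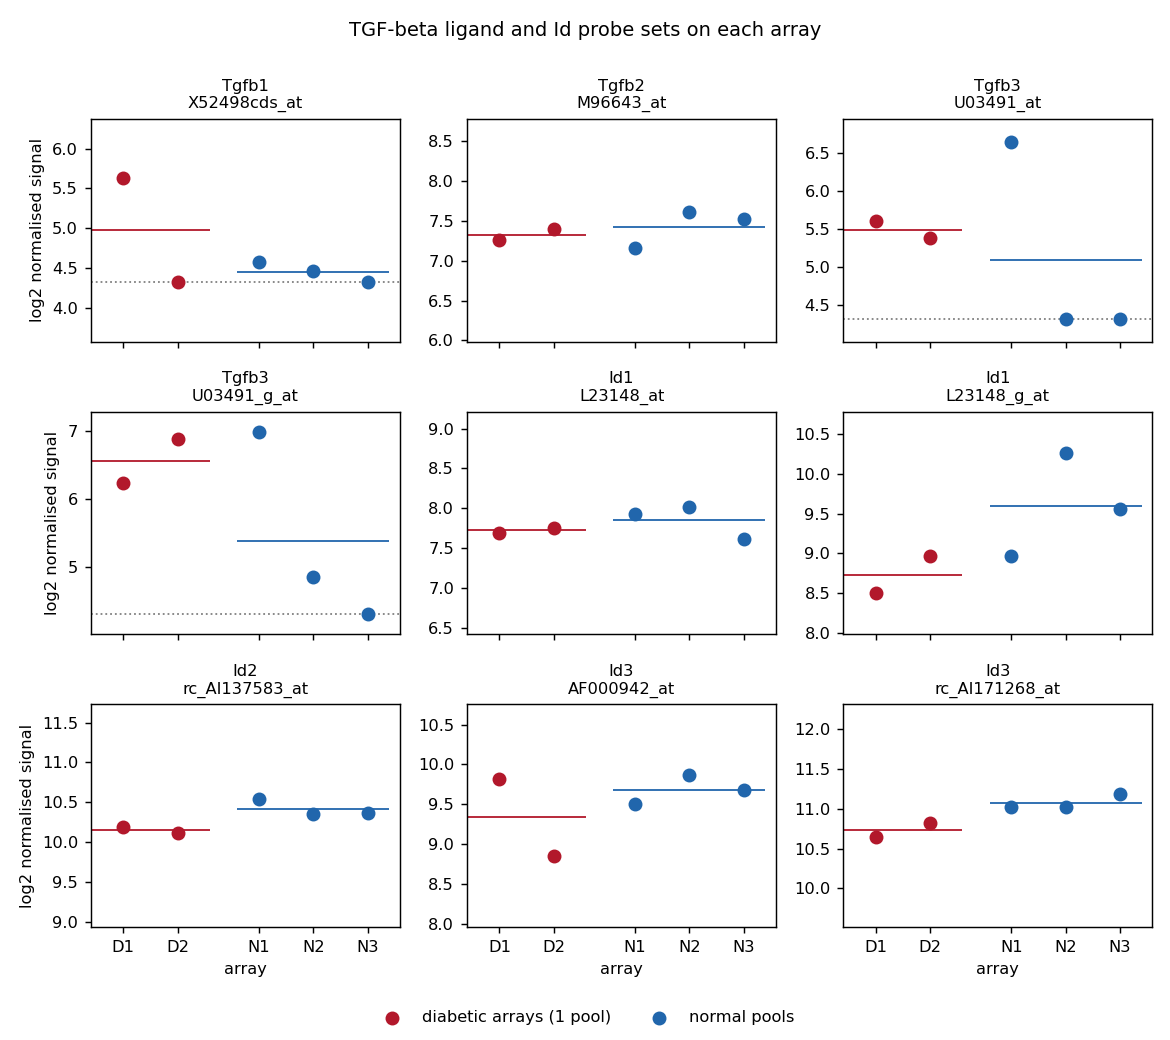
Log2 normalised signal (y axes, each with its own range) of the 9 tested probe sets on diabetic arrays D1 and D2 (red, 1 pool) and normal arrays N1 to N3 (blue, 1 pool each). Horizontal lines are group means and dotted lines the floor of 20. The diabetic arrays lie below all normal arrays for Id2 rc_AI137583_at and Id3 rc_AI171268_at, and Tgfb3 is low on N2 and N3 but not on N1.

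The 5 Id probe sets had a median log2 difference of -0.34, against a median of -0.01 over all tested probe sets, of which 51.2% lay below normal. These 5 stand for 3 genes, and the probe sets of 1 gene are not independent. Between diabetic array 2 and normal array 3, the arrays of 1 day and chip lot, the differences were -0.59 and 0.14 for Id1 L23148_g_at and L23148_at, -0.25 for Id2, and -0.36 and -0.83 for Id3 rc_AI171268_at and AF000942_at. For 4 of these 5 the sign of the difference rested on bringing the arrays to a common scale, whereas Id1 L23148_g_at was at -0.38 unscaled. In the deposited signals Id2 had 1253 and 1222 on the diabetic arrays, against 739.4, 693.5 and 2464 on the normal arrays, since the overall signal of normal array 3 was the highest and that of normal array 2 the lowest. Unscaled, the median of all tested probe sets shifted to 0.47, and relative to that median the 5 Id differences were -0.09 (L23148_at), -0.85 (L23148_g_at), -0.28 (Id2), -0.29 (AF000942_at) and -0.31 (rc_AI171268_at).

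Tgfb3, the ligand with the largest difference, varied most between normal pools. Its probe set U03491_g_at had signals of 74.98 and 118.2 on the diabetic arrays, against 126.2, 29.1 and 20 on the normal arrays, the last being the floor. The diabetic arrays thus lay above normal arrays 2 and 3 and below normal array 1. The log2 difference was 1.17 (SE 1.07, 95% interval -1.51 to 3.85; limma's unadjusted p = 0.322), or 2.25 times normal. The SD over the 3 normal pools was 1.40, above that of 98.7% of the tested probe sets. The second probe set of the same GenBank entry, U03491_at, had 48.62 and 41.57 on the diabetic arrays, against 99.92 on normal array 1 and the floor on normal arrays 2 and 3. Its difference was 0.39 (SE 1.04). The size of both values turned on single normal arrays. Without normal array 2 or normal array 3 U03491_at was at 0.0082, and without normal array 3 U03491_g_at was at 0.64. Without normal array 1 they were 1.96 (U03491_g_at, limma's unadjusted p = 0.0164, adjusted p = 0.939) and 1.17 (U03491_at, unadjusted p = 0.0409, adjusted p = 0.939), and between the arrays of the shared day 2.56 and 1.06.

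Tgfb2, the ligand that depends on betaglycan for high-affinity binding, overlapped between groups. Its probe set M96643_at had signals of 152.8 and 168.2 on the diabetic arrays, against 142.6, 196.1 and 183.6 on the normal arrays. The diabetic arrays lay within the normal range, and the log2 difference was -0.11 (SE 0.36, 95% interval -1.01 to 0.80; limma's unadjusted p = 0.781). The interval is too wide to show equal levels. The difference on the shared day was -0.13.

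Tgfb1, the isoform known from wound repair and immune regulation, was close to the floor. Its probe set X52498cds_at had 49.4 on diabetic array 1 and the floor of 20 on diabetic array 2, against 23.79, 21.92 and 20 on the normal arrays. The 2 arrays of the diabetic pool differed by 1.30 on the log2 scale, more than any 2 normal pools, which differed by at most 0.25. The log2 difference was 0.52 (SE 0.46, 95% interval -0.62 to 1.67; limma's unadjusted p = 0.298). It was 1.18 without diabetic array 2 and -0.13 without diabetic array 1, and on the shared day both arrays were at the floor.

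The 4 receptor probe sets stayed near the floor and have values but no test. For the type I receptor Tgfbr1, S81584_s_at had the floor on both diabetic arrays, against the floor, 20.18 and the floor on the normal arrays. L26110_at was at the floor and 21.08 on the diabetic arrays, against the floor, 42.26 and the floor on the normal arrays. For betaglycan, Tgfbr3, M77809_at had the floor and 23.04 on the diabetic arrays, against 34.9, 27.36 and 27.62 on the normal arrays, a log2 difference of -0.47 without overlap. The other Tgfbr3 probe set, M80784_s_at, went the other way, with the floor and 33.95 on the diabetic arrays, against the floor, 33.27 and the floor on the normal arrays (log2 difference 0.14). The highest of these receptor signals, 42.26, came from 1 normal array.

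**Figure D2:**
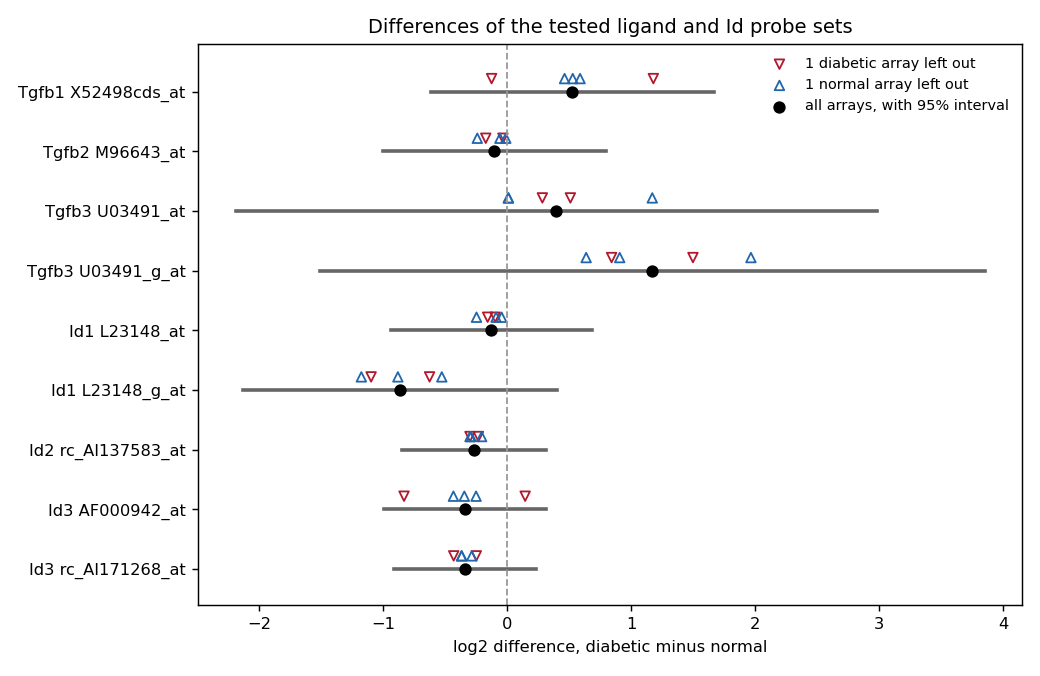
Log2 difference, diabetic minus normal (x axis), of the 9 tested probe sets. Black points with bars are the differences with their 95% intervals from limma, and open triangles the same difference with 1 diabetic array (red) or 1 normal array (blue) left out. All 9 intervals cross 0, and leaving out 1 diabetic array changes the sign for Tgfb1 and for Id3 AF000942_at.

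The 3 arrays with an actin ratio under 2 were diabetic array 1 and normal arrays 2 and 3. On these, Tgfb1, Tgfb2, both Tgfb3 probe sets, Id1 L23148_g_at and Id3 rc_AI171268_at lay further apart than on all 5. Id1 L23148_at, Id2 and Id3 AF000942_at lay closer together. Tgfb3 differed by 1.64 (U03491_g_at) and 1.28 (U03491_at), Tgfb1 by 1.24 and Id1 L23148_g_at by -1.41, these 4 of the 9 with an unadjusted p under 0.05 by limma (0.0273, 0.013, 0.0166 and 0.046). On those arrays 8.71% of all 6118 tested probe sets had such a p, and the adjusted p of the 4 was 0.554. There Tgfb2 differed by -0.31, Id1 L23148_at by -0.12, Id2 by -0.17 and Id3 by -0.46 (rc_AI171268_at) and 0.05 (AF000942_at). That comparison has 1 diabetic and 2 normal arrays and 1 residual degree of freedom. Both normal arrays were at the floor of 20 for Tgfb3 U03491_at, and so had no spread. For U03491_g_at (29.1 and 20) and Tgfb1 (21.92 and 20) normal array 3 was at the floor. The p-values of Tgfb3 and Tgfb1 thus rest on normal values cut by the floor. The comparison also leaves out normal array 1, which for Tgfb3 lay above both diabetic arrays, at 126.2 (U03491_g_at) and 99.92 (U03491_at).

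Other genes of the pathway were taken from 5 lists of 129 genes in all, of which 59 were tested, each by its brightest tested probe set. Above normal were 24 of these and below it 35, and over all tested probe sets 51.2% lay below. At limma's adjusted threshold 0 passed, against 0% of all tested probe sets. At an unadjusted p under 0.05 there were 1 above and 2 below, against 1.6% of all tested probe sets. Among other ligands and binding proteins 9 lay above and 6 below normal, with a median log2 difference of 0.15. Inhba, which encodes a subunit of activin, differed by 0.48 (SE 0.56), or 0.28 without normal array 2. Itgav, an integrin subunit that helps to free latent TGF-beta, differed by -0.63 (SE 0.53), which was -1.09 without diabetic array 1 and -0.16 without diabetic array 2. Gdf15, a stress-induced member of the superfamily, was at the floor on both diabetic arrays and on normal array 1, with 42.96 and 59.38 on normal arrays 2 and 3.

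Of the other receptors 3 lay above and 2 below normal, with a median of 0.07. The type I receptor gene Acvr1, which serves bone morphogenetic proteins, differed by 0.47 (SE 0.73), and Acvr1b and Acvr2b, which serve activin, by 0.12 (SE 0.43) and -0.17 (SE 0.43). A second probe set of Acvr2b differed by 0.38 (SE 0.48). Without normal array 1 Acvr1 was at 0.01, Acvr1b at 0.05 and Acvr2b at 0.10, and with only the 3 arrays of low actin ratio Acvr1 was at -0.19. Among 7 Smads and regulators 2 lay above and 5 below normal. Smad4, the partner shared by both branches, had signals of 124 and 144.1 on the diabetic arrays, against 99.68, 90.4 and 99.22 on the normal arrays (log2 difference 0.47, SE 0.39). Smad1, of the bone morphogenetic protein branch, had 39.84 and 34.14 on the diabetic arrays, against 21.39, 22.16 and 33.38 on the normal arrays (0.55, SE 0.52). Both diabetic arrays thus lay above all normal arrays on these 2 probe sets, which 9.53% of all tested probe sets also did. The other Smad1 probe set, untested, had 24.44 and the floor on the diabetic arrays, against the floor on all 3 normal arrays. Smad3, of the TGF-beta branch, had 29.66 and the floor on the diabetic arrays, against 31.98, 32.3 and 31.76 on the normal arrays (-0.39, or -0.11 without diabetic array 2).

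Of 22 genes known as TGF-beta targets in other cells 6 lay above and 16 below normal. The median log2 difference of the 22 was -0.18, against -0.01 over all tested probe sets, of which 51.2% lay below normal. The genes were counted without regard to whether TGF-beta raises or lowers them. Timp1, an inhibitor of metalloproteinases, had 474.1 and 472.4 on the diabetic arrays, against 320.4, 339.4 and 234 on the normal arrays (log2 difference 0.69, SE 0.33, limma's unadjusted p = 0.0868). Its second probe set differed by 2.11 (SE 0.89), with normal array 1 at the floor. Timp3, which inhibits metalloproteinases bound to the matrix, had 109.3 and 64.64 on the diabetic arrays, against 104.8, 175.4 and 176.4 on the normal arrays (-0.82, SE 0.46, or -0.44 without diabetic array 2). Vegfa, the vascular growth factor, differed by -0.91 (SE 0.47) on its brightest probe set, and without diabetic array 2 by -0.53. Of its other probe sets M32167_g_at differed by -1.20 (limma's unadjusted p = 0.0334) without overlap and M32167_at by 0.21, and L20913_s_at, with 1 array of each group at the floor, by -1.35.

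The list of Id partners and other bHLH genes held the genes with the lowest unadjusted p of the 5 lists. Of its 10 tested genes 4 lay above and 6 below normal (median -0.12). Hes1, a bHLH repressor that acts downstream of Notch and whose protein can pair with Id proteins, had 877.5 and 780.3 on the diabetic arrays, against 1410, 1547 and 1430 on the normal arrays. Its log2 difference was -0.82 (SE 0.23, 95% interval -1.39 to -0.25; limma's unadjusted p = 0.013, adjusted p = 0.9999), and -0.56 (SE 0.30) on its second probe set. Hes5, a related repressor, had 509.2 and 349.4 on the diabetic arrays, against 691.8, 686.1 and 883.7 on the normal arrays (-0.83, SE 0.27, unadjusted p = 0.026), and -0.97 (SE 0.32) on its second probe set. All 4 probe sets of these genes had both diabetic arrays below every normal array, as had 7.01% of all tested probe sets, but both genes are named here for their low p. On the second Hes1 probe set this was close to a tie, with 994.2 on diabetic array 1 against 1005 on normal array 3. Without diabetic array 2 Hes5 was at -0.56, with an unadjusted p of 0.0855 by limma. Neurod1, a bHLH activator of photoreceptors and amacrine cells, had 480.4 and 365.9 on the diabetic arrays, against 201.5, 269.8 and 217.6 on the normal arrays (0.88, SE 0.32, unadjusted p = 0.0346). On its second probe set, D82074_at, the groups overlapped, with 246.3 and 131.8 on the diabetic arrays, against 73.65, 139.3 and 90.19 on the normal arrays (0.89, SE 0.49, limma's unadjusted p = 0.127). With the arrays scaled to a common median limma's unadjusted p was 0.133 for Hes1, 0.145 for Hes5 and 0.0982 for Neurod1, and with eBayes without trend it was 0.0567, 0.0713 and 0.0615, so that none of the 3 stayed under 0.05. Photoreceptor markers lay above normal on the same arrays, as given above. Of 8 tested markers of inner retinal neurons 4 lay above and 4 below normal, with a median log2 difference of -0.04. The part of these cells in the Neurod1 values was not tested. The E protein genes Tcf3, Tcf4 and Tcf12, whose products Id proteins bind, differed by 0.16 (SE 0.50), -0.08 (SE 0.41) and -0.75 (SE 0.44). Of these 3, Tcf12 had both diabetic arrays below every normal array.

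**Figure D3:**
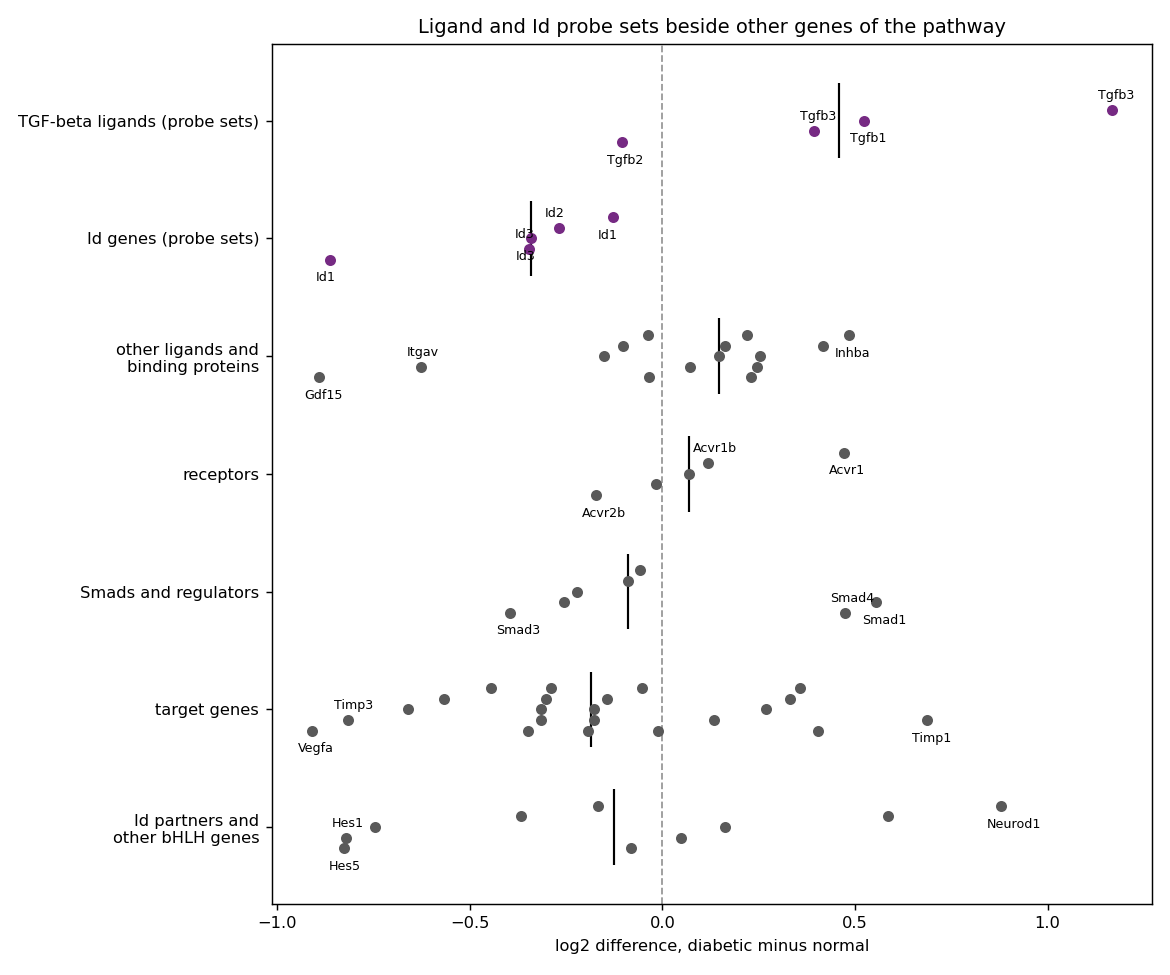
Log2 differences, diabetic minus normal (x axis), of the tested ligand and Id probe sets (purple) and of the other pathway genes by list (grey, 1 probe set per gene), with the median of each row as a black line. Labels name the ligand and Id genes and, in each list, the genes picked by unadjusted p or largest difference. Tcf3, Tcf4 and Tcf12, also given in the text, carry no label. Vertical spread within a row is for legibility only. The Id row lies wholly below 0, and every other row spans 0.

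**Figure D4:**
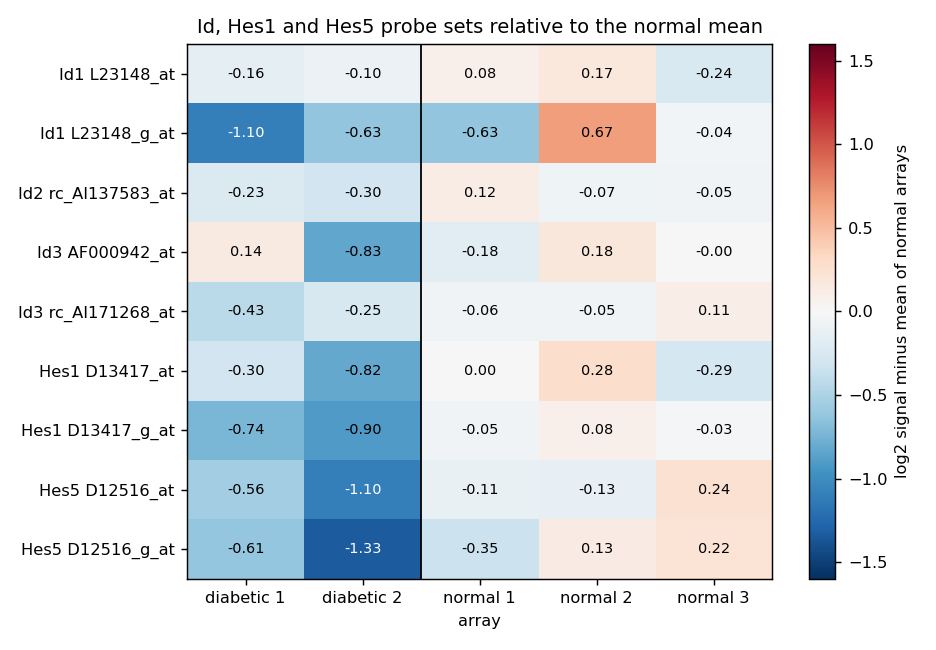
Log2 signal minus the mean of the 3 normal arrays (colour and printed value) for the Id, Hes1 and Hes5 probe sets, with the 2 diabetic arrays left of the line. For Id2, Id3 rc_AI171268_at and all 4 Hes1 and Hes5 probe sets, both diabetic arrays are lower than every normal array.

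Of the 6 tested genes, 3 had a brightest probe set that spanned at least 1 log2 unit over the 5 arrays, and the 3 closest patterns to each were sought among 3617 other genes. Closeness was the Euclidean distance between array-centred log2 signals over 5 arrays, so that few points and shared array effects enter it. Nearest to Id1 L23148_g_at were Adcyap1r1 (distance 0.41), Dcaf7 (0.50) and the nuclear receptor gene Nr4a1 (0.51), against a median of 1.54 over all genes. Adcyap1r1 was at the floor on both diabetic arrays. Nearest to Tgfb3 U03491_g_at were Kcnj15 (0.77), Gcm1 (0.81) and Dpp4 (0.82), against a median of 2.49, each with at least 1 of normal arrays 2 and 3 at the floor. Nearest to Tgfb1 were Irs2 (0.15), Mapk7 (0.30) and Cacna1e (0.35), against a median of 1.36.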

How the data were processed

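Total RNA of Müller cells was measured on 5 rat oligonucleotide arrays. The authors deposited 1 linear intensity for each probe set. How probes were summarised and scaled is not given in the sources used here. Because the 2% trimmed means of the arrays differed by a ratio of 3.52, values were quantile-normalised, floored at 20 and converted to log2. After removal of 59 control probe sets the dimmest 30% were left out, which kept 6118 of 8740. The floor shrinks differences of dim genes. The 2 diabetic arrays were averaged, and limma 3.58.1 under R 4.3.3 (lmFit, eBayes with trend, Benjamini-Hochberg over 6118, two-sided) compared that pool with 3 normal pools, with 2 residual and 3.54 prior degrees of freedom. The step was tested on simulated data. Alternatives were 2 scalings, 2 floors, 2 filters, eBayes without trend, 5 separate arrays, each array left out, the 3 arrays with a low actin ratio, and the arrays of 1 day. Symbols came from the platform annotation, and all 13 probe sets matched RefSeq by gene ID. Every member probe set was named, then pathway genes with an unadjusted p under 0.05 or the 3 largest differences of each list, and the 3 nearest patterns; the E protein genes were chosen outside this rule, after values were seen. Members and lists were chosen with earlier results of these data known. Figures were drawn with matplotlib 3.10.9.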

Additional observations from a re-analysis of the deposited data

How the results depend on the processing

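In all 14 alternative fits 0 member probe sets passed the adjusted threshold. Over all probe sets limma called 147 with a floor of 50, 170 with no probe set filtered out and 13 with the 5 arrays as separate samples, and 0 otherwise. Of the 147 and 170, 138 and 162 had no spread at all between normal pools, as had the 3 pathway genes called in the unfiltered fit by their brightest probe set. The sign of the difference turned in these cases for member probe sets tested in the main fit, where 0 were called. With the deposited values unscaled the differences were 0.39 for Tgfb2, 0.39 for Id1 L23148_at, 0.19 for Id2, and 0.19 (AF000942_at) and 0.17 (rc_AI171268_at) for Id3. With a floor of 50 it was -0.33 for Tgfb3 U03491_at. Leaving out 1 array gave -0.13 (without diabetic array 1) to 1.18 for Tgfb1, which was too dim to be tested without diabetic array 1. For Id3 AF000942_at it gave -0.83 to 0.14 (without diabetic array 2). The same omission gave -0.43 to -0.25 for Id3 rc_AI171268_at, -0.30 to -0.21 for Id2, -1.18 to -0.53 for Id1 L23148_g_at and 0.64 to 1.96 for Tgfb3 U03491_g_at. Id3 AF000942_at stood at 0.053 when restricted to low actin ratios, and Id1 L23148_at at 0.14 on the shared day. No paired analysis was possible because both diabetic arrays come from 1 pool, which leaves no second diabetic sample to pair with a normal pool. Signal near the floor limits Tgfb1, Tgfb3 and both receptor genes.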
